A study of Mus musculus with 27 samples.

Results

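The genes described here are 10 genes of the bone morphogenetic protein (BMP) pathway, chosen by gene symbol from the 20155 genes of the deposited expression tables. They are the ligands Bmp2, Bmp4 and Bmp7, the receptors Bmpr1a and Bmpr2, the secreted antagonist Grem1, and the target genes Id1, Id2, Id3 and Id4. All 10 symbols were found, each in 1 row. Their RNA was read from 6 RNA-seq libraries, and the nucleosomes at their transcription start sites (TSSs) from 21 libraries of MNase ChIP-seq.

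The study followed mouse embryonic fibroblasts (MEFs) as they became induced pluripotent stem cells (iPSCs) by way of a stalled intermediate, the pre-iPSC. The MEFs came from E13.5 embryos that carried an Oct4-GFP transgenic allele and a Rosa26 allele. Their background was CBA/CaJ and C57BL/6J per the labels, and per the methods Oct-GFP males of that background were crossed to 129Sv/Jae females. Pre-iPSCs and iPSCs were derived from such MEFs with the 4 Yamanaka factors delivered by retrovirus, so all cell types share those alleles. The methods name 2 stable pre-iPSC clones and the iPSCs that correspond to them, but the clone behind each library is not given in the sources used here. MEFs were grown in fibroblast medium for no more than 3 passages before RNA-seq, while pre-iPSCs and iPSCs were grown for 6 passages in medium with serum and leukaemia inhibitory factor on inactivated MEF feeder cells. MEF chromatin was also digested with another amount of MNase and for another time, so cell type, medium, feeders and digestion cannot be told apart in a comparison with MEFs. Each cell type had 2 replicates of RNA-seq, H3, H3K4me3 and H3K27me3 and 1 library of H3K9me3, and libraries titled as repeats are called replicate 2.

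BMPs are secreted ligands that bring together type I receptors such as Bmpr1a and the type II receptor Bmpr2. The activated receptors phosphorylate Smad1, Smad5 and Smad9, which enter the nucleus with Smad4 and switch on target genes, the Id genes foremost. Id proteins carry a helix-loop-helix without a DNA-binding region, and they hold back the E proteins with which they pair. In mouse embryonic stem cells grown with leukaemia inhibitory factor, BMP4 acting through Id genes is known to sustain self-renewal, and in fibroblasts BMP signals are known to favour the change to an epithelial state early in reprogramming. H3K4me3 marks the start sites of active and poised genes, H3K27me3 is the mark of Polycomb repression, and H3K9me3 marks heterochromatin.

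In mm9, the build of the deposited tables, Bmp2 lies on the plus strand at chr2:133378935-133388621, Bmp7 on the minus strand at chr2:172695189-172765794 and Bmp4 on the minus strand at chr14:47003196-47010274. Bmpr1a lies on the minus strand at chr14:35224254-35315732 and Bmpr2 on the plus strand at chr1:59821481-59927703. Grem1 lies on the minus strand at chr2:113588832-113598805. The Id genes are short and lie apart, with Id1 on the plus strand at chr2:152562010-152563146, Id2 on the minus strand at chr12:25778664-25780957, Id3 on the plus strand at chr4:135699737-135701307 and Id4 on the plus strand at chr13:48356796-48359405. No other protein-coding gene of GENCODE vM1 starts within 2000 bp of any of the 10 TSSs, and starts farther away were not checked. The GENCODE start lay 1040 bp upstream of the tables' TSS at Bmp2 and 325 bp upstream at Id3, and within 141 bp of it at the others.

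The 300 bases around the start are printed for Id2 and Id3, whose RNA and H3K27me3 both differed between cell types in a window stated below, and for Bmp4 and Grem1, the ligand and the antagonist whose RNA fell from MEFs to iPSCs. They were taken from a RefSeq promoter table of build GRCm38.p6, in which 7 of the 10 genes were matched, all but Bmp2, Bmp7 and Id1. Capitals mark matches to GGCGCC, a motif known for Smad1 and Smad5, and to GTCTG, a Smad box, or in reverse complement CAGAC. Both strands were searched, the first motif is its own reverse complement, and the motifs do not overlap each other.
Id2, chr12:25096043-25096342, minus strand: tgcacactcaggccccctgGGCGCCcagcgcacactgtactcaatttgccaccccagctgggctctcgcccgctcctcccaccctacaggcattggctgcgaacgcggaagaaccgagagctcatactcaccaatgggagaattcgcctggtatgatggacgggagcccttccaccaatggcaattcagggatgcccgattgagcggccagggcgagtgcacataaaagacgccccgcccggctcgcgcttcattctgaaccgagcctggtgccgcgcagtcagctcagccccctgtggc
Id3, chr4:136143572-136143871, plus strand: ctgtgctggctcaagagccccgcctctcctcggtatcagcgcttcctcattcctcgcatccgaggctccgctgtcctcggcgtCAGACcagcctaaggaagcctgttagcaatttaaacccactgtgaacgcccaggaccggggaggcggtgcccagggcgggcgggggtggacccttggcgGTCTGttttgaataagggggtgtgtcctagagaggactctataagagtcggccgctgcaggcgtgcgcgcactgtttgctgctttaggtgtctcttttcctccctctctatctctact
Bmp4, chr14:46390620-46390919, minus strand: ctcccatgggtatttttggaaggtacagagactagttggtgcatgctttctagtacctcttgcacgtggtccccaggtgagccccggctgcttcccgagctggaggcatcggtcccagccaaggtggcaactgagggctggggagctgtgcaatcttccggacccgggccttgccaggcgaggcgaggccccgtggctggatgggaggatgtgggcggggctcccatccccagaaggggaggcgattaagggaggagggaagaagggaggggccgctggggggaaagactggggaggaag
Grem1, chr2:113758599-113758898, minus strand: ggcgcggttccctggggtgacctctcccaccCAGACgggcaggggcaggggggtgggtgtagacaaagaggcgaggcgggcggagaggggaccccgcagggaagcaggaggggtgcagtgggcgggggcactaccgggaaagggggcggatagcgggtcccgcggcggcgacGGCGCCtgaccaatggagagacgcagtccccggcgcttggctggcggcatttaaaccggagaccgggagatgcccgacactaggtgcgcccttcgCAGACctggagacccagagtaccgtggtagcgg
Each of the 4 sequences had 1 exact match in mm9 near the tables' TSS, and the rest of the genome was not searched. The windows of Id2, Id3 and Grem1 there run from -250 to 49 bp of the tables' TSS, and that of Bmp4 from -320 to -21 bp. GGCGCC was found once in Id2 and once in Grem1, and also once in Bmpr1a, Bmpr2 and Id4, against 11.9% of 32851 promoters of the same length. GTCTG was found 2 times in Id3 and 2 times in Grem1, against 49.6% of those promoters. Neither motif was in the Bmp4 window. The number of CpG dinucleotides was 12 in Bmp4, 19 in Id3, 21 in Id2, 23 in Bmpr2, 28 in Grem1, 39 in Id4 and 48 in Bmpr1a, all above the median of 7 over all promoters. The shares over all promoters were not matched for CpG number, and GGCGCC itself holds a CpG. A match is given as a description of the letters only.

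Expression is given as FPKM, fragments scaled to the length of the transcript and to the mapped fragments of the library, as deposited, and values are listed for replicates 1 and 2 in that order. FPKM is scaled by transcript length, so levels can be compared between genes. No read counts come with the tables, so the depth behind an FPKM is unknown. The replicates are in separate tables, each made by its own run of the quantification, and the test compares cell types within a table. A call needed an adjusted p below 0.05 in limma, over the 12401 genes whose mean reached 0.5 FPKM, and a change of at least 2-fold on the scale of log2(FPKM + 1). All members but Bmp2 passed this filter. Bulk RNA does not separate fewer cells of a type from less RNA per cell.

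The labels were checked with marker genes. The summed level of 15 fibroblast markers, such as Col1a1 and Thy1, was 8471 and 10030 FPKM in MEFs, 1314 and 1046 FPKM in pre-iPSCs and 501.8 and 674.7 FPKM in iPSCs, and none of the 15 was listed at 0 in any library. Of these markers, 10 were called lower in pre-iPSCs and 12 in iPSCs than in MEFs, and 0 between iPSCs and pre-iPSCs, where the median log2 change of the 15 was 0.28. Without the filter on low values 8 of the 10 and 10 of the 12 were still called. Dcn and Lum, chosen here after their values were seen, had log2 changes of the other sign for iPSCs against MEFs, at 0.89 and 1.42, neither called. The summed level of 15 pluripotency markers was 0.168 and 1.06 FPKM in MEFs, 954 and 3724 FPKM in pre-iPSCs and 2650 and 2544 FPKM in iPSCs. The sum includes Pou5f1 (Oct4) and Sox2, which are among the 4 Yamanaka factors, and delivered and endogenous RNA were not told apart. The median of the 15 was 1.70 and 1.67 FPKM in pre-iPSCs, against 65.7 and 62.2 FPKM in iPSCs. In MEFs 12 and 10 of them were listed at 0, including Nanog and Zfp42, in each pre-iPSC library 3 were, including Nanog in replicate 2, and in iPSCs none. The summed level of 10 epithelial markers was 5.27 and 6.11 FPKM in MEFs, 104 and 58.8 FPKM in pre-iPSCs and 178 and 228 FPKM in iPSCs, and 9 of them were called higher in iPSCs than in MEFs. In each MEF library 9 of the 10 were under 1 FPKM, so most passed the filter through the other cell types, and without the filter 5 of the 9 were still called. Of 10 markers of early endoderm, mesoderm and trophoblast, whose sum was 1.87 to 6.35 FPKM in the 6 libraries, 3 passed the filter. RNA of these fibroblast markers thus stayed measurable in the pre-iPSC and iPSC cultures, which were grown on feeders. Whether it came from feeder cells or from the reprogrammed cells was not tested, nor was the part of fibroblast RNA in the FPKM of the genes below.

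From MEFs to iPSCs, the RNA of 6 of the 9 members tested fell, namely all 4 Id genes, Bmp4 and Grem1, and that of Bmp7 rose. Over all genes tested, 15.5% were called lower and 10.3% higher in this comparison. The receptors Bmpr1a and Bmpr2 were not called. The median log2 change of the 9 members was -1.76, and that of all genes was -0.14. The course differed between genes, as Grem1 was already called lower in pre-iPSCs, whereas Id1 was highest in pre-iPSCs and was called lower at the step to iPSCs. With 1 library left out, the calls of these members were unchanged without MEF replicate 1 or either pre-iPSC library. Without MEF replicate 2 Bmpr2 was called lower and Id4 was not called. Grem1, Id2 and Id3 kept their calls without iPSC replicate 2, and Grem1 alone without iPSC replicate 1. The share of all genes called in either direction, 25.9% with all libraries, also fell without either iPSC library.

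**Figure D1:**
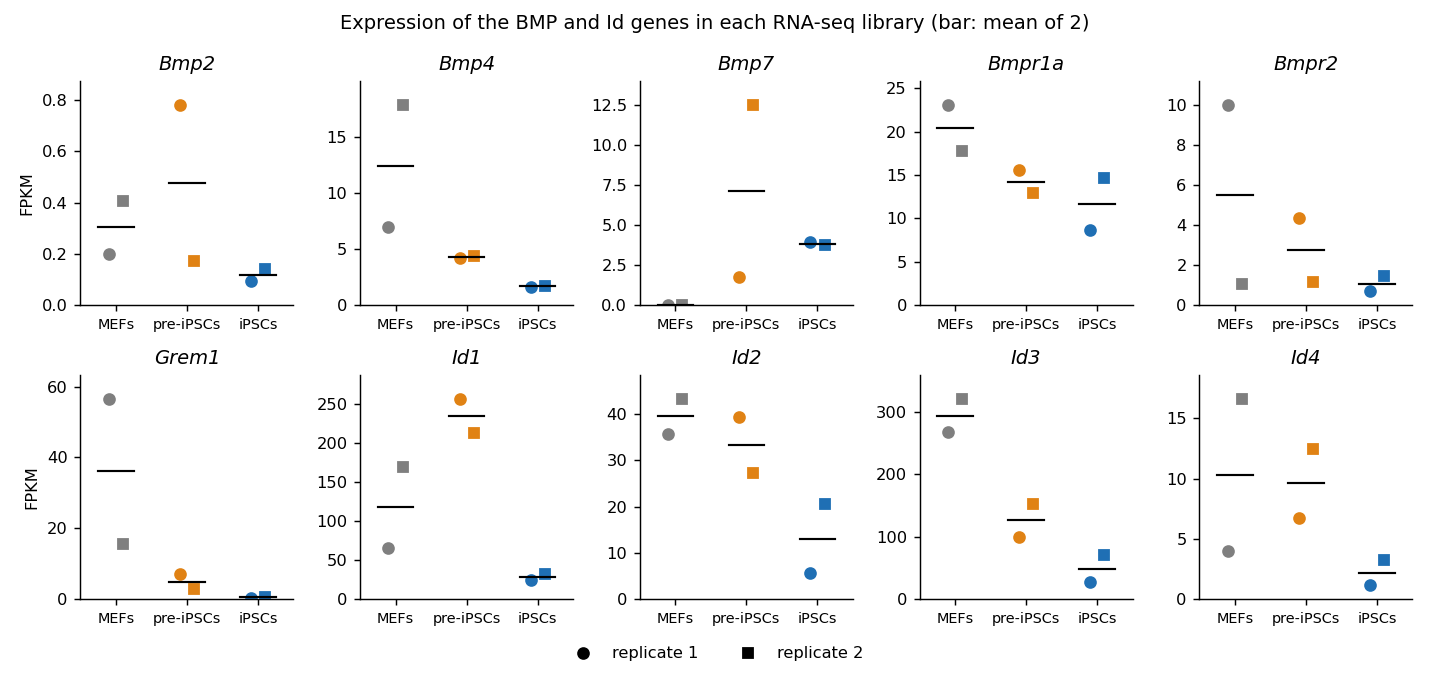
FPKM of the 10 genes in the 6 RNA-seq libraries, with 1 panel per gene, 1 point per library (circles for replicate 1, squares for replicate 2) and a bar at the mean of each cell type. The Id1 points of pre-iPSCs lie at 257 and 213 FPKM, above all other libraries, and the Grem1 points fall from 56.5 and 15.6 FPKM in MEFs to 0.350 and 0.567 FPKM in iPSCs.

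Among the ligands, Bmp4, a ligand that can stand in for serum in mouse stem cell culture, was at 6.96 and 17.8 FPKM in MEFs, 4.19 and 4.37 FPKM in pre-iPSCs and 1.65 and 1.73 FPKM in iPSCs. The cell types did not overlap and stood in this order in both tables. Bmp4 was lower in iPSCs than in MEFs by a log2 change of -2.19 ± 0.44 (SE, n = 2 per group, adjusted p = 0.0117), with -1.59 and -2.78 in the separate tables. It was not called for pre-iPSCs against MEFs (-1.21 ± 0.44, adjusted p = 0.107) or iPSCs against pre-iPSCs (-0.97 ± 0.44, adjusted p = 0.258). Without iPSC replicate 1 the adjusted p of iPSCs against MEFs was 0.0803, and without iPSC replicate 2 it was 0.115. Without MEF replicate 1, the fall from MEFs to pre-iPSCs was -1.81 with an adjusted p of 0.0197.

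Bmp7, a ligand with broad roles in kidney, eye and skeletal development, was listed at 0 FPKM in both MEF libraries, at 1.75 and 12.5 FPKM in pre-iPSCs and at 3.96 and 3.75 FPKM in iPSCs. The pre-iPSC replicates differed 7.17-fold, and the iPSC values lay between them. Bmp7 was called higher than in MEFs in pre-iPSCs (adjusted p = 0.0257) and in iPSCs (adjusted p = 0.0303), and no fold change is given against a group listed at 0. It passed the filter on low values through its pre-iPSC and iPSC levels, and both calls were lost without that filter (adjusted p = 0.0927 and 0.0874). The call for pre-iPSCs was lost without pre-iPSC replicate 2 (adjusted p = 0.101), without iPSC replicate 1 (0.0726) and without iPSC replicate 2 (0.0738). The call for iPSCs was lost without iPSC replicate 1 (0.243) and without iPSC replicate 2 (0.104).

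Bmp2, a ligand of bone and heart formation, was at 0.201 and 0.405 FPKM in MEFs, 0.780 and 0.174 FPKM in pre-iPSCs and 0.0936 and 0.141 FPKM in iPSCs. Its mean stayed below the filter, so it was not tested, and its highest and lowest pre-iPSC values enclosed both MEF values. Of 11 other BMP ligand genes, 10 were in the tables, 2 were listed at 0 in all 6 libraries and 1 was tested, which was not called.

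The type I receptor Bmpr1a was at 23.1 and 17.8 FPKM in MEFs, 15.6 and 12.9 FPKM in pre-iPSCs and 8.64 and 14.6 FPKM in iPSCs. MEFs were highest without overlap, and pre-iPSCs and iPSCs overlapped. The log2 change of iPSCs against MEFs was -0.79 ± 0.40 (SE, n = 2 per group, adjusted p = 0.183), and those of the other comparisons were -0.49 (adjusted p = 0.463) and -0.30 (adjusted p = 0.744). The type II receptor Bmpr2 was at 10.0 and 1.05 FPKM in MEFs, 4.35 and 1.18 FPKM in pre-iPSCs and 0.70 and 1.46 FPKM in iPSCs. Its MEF replicates differed 9.55-fold, all 3 cell types overlapped, and its change from MEFs to iPSCs was -2.70 in the first table and 0.27 in the second. It was not called (-1.21 ± 0.65, adjusted p = 0.208), but without MEF replicate 2 it was called lower in iPSCs than in MEFs (-2.24, adjusted p = 0.00495). Neither receptor was listed at 0 in any library.

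Grem1, which encodes gremlin, a secreted protein that binds BMPs and keeps them from their receptors, was at 56.5 and 15.6 FPKM in MEFs, 7.0 and 2.70 FPKM in pre-iPSCs and 0.350 and 0.567 FPKM in iPSCs. The 3 cell types did not overlap. Among all genes in the tables its level ranked at percentiles 93.2 and 79.6 in MEFs and 38.5 and 41.0 in iPSCs. Grem1 was lower in pre-iPSCs than in MEFs by -2.51 ± 0.52 (SE, n = 2 per group, adjusted p = 0.0178) and lower in iPSCs than in MEFs by -4.41 ± 0.52 (adjusted p = 0.00186), on the log2 scale. In the separate tables the latter change was -5.41 and -3.40. Grem1 was called in iPSCs against MEFs under all 11 alternatives run, while the call in pre-iPSCs was lost without pre-iPSC replicate 2 (-2.34, adjusted p = 0.0943) and without the filter on low values (adjusted p = 0.0681). For iPSCs against pre-iPSCs it was not called (-1.90 ± 0.52, adjusted p = 0.0709), and it was without MEF replicate 1 (adjusted p = 0.00229) or MEF replicate 2 (0.00255). The fibroblast markers had a median log2 change of -3.47 at the first step and 0.28 at the second, and their part in the level of Grem1 was not tested.

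Id1, the Id gene used most often as a readout of BMP signals, was at 65.6 and 170 FPKM in MEFs, 257 and 213 FPKM in pre-iPSCs and 24.2 and 32.3 FPKM in iPSCs. Both pre-iPSC libraries were above both MEF libraries, and both iPSC libraries were below all others. In pre-iPSCs Id1 ranked at percentiles 98.9 and 98.5 of all genes. The fall from pre-iPSCs to iPSCs was -3.02 ± 0.46 on the log2 scale (SE, n = 2 per group, adjusted p = 0.00939), with -3.36 and -2.68 in the separate tables, and that from MEFs to iPSCs was -1.88 ± 0.46 (adjusted p = 0.0247). Pre-iPSCs against MEFs was not called at 1.14 ± 0.46 (adjusted p = 0.143), and was called after quantile normalization (1.67, adjusted p = 0.0295) and without MEF replicate 2 (1.79, adjusted p = 0.00584). The fall from pre-iPSCs lost its call without pre-iPSC replicate 1 (adjusted p = 0.0809), iPSC replicate 1 (0.132) or iPSC replicate 2 (0.141). The fall from MEFs lost it without iPSC replicate 1 (0.141), iPSC replicate 2 (0.157) or the filter on low values (0.0525).

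Id3, which is often induced together with Id1, was at 267 and 321 FPKM in MEFs, 100 and 152 FPKM in pre-iPSCs and 27.5 and 70.1 FPKM in iPSCs. Its levels fell in order without overlap. The log2 change of iPSCs against MEFs was -2.71 ± 0.42 (SE, n = 2 per group, adjusted p = 0.00453), with -3.24 and -2.18 in the separate tables, and without iPSC replicate 1 it was -2.27 with an adjusted p of 0.0641. The steps were not called, at -1.24 ± 0.42 for pre-iPSCs against MEFs (adjusted p = 0.0877) and -1.47 ± 0.42 for iPSCs against pre-iPSCs (adjusted p = 0.0775). The first was called without MEF replicate 2 (-1.59, adjusted p = 0.0165), and the second without MEF replicate 1 (adjusted p = 0.00384) or MEF replicate 2 (0.00348).

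Id2, an Id gene with wide roles in lymphoid and neural cells, was at 35.7 and 43.3 FPKM in MEFs, 39.3 and 27.3 FPKM in pre-iPSCs and 5.55 and 20.6 FPKM in iPSCs. MEFs and pre-iPSCs overlapped, and both iPSC libraries were lower, although they differed 3.71-fold. Id2 was lower in iPSCs than in MEFs by -1.76 ± 0.53 (SE, n = 2 per group, adjusted p = 0.0477), with -2.49 and -1.04 in the separate tables. This call was lost without iPSC replicate 1 (-0.84, adjusted p = 0.274), after quantile normalization (-1.34, 0.107), without the filter on low values (0.0999) and without the table as a term (0.05, marginally above the threshold). For iPSCs against pre-iPSCs Id2 was not called (-1.51 ± 0.53, adjusted p = 0.149), and it was without MEF replicate 1 (0.00824) or MEF replicate 2 (0.00789).

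Id4, known from neural and mammary progenitors, was the lowest of the Id genes, at 4.02 and 16.6 FPKM in MEFs, 6.74 and 12.5 FPKM in pre-iPSCs and 1.13 and 3.24 FPKM in iPSCs. MEFs and pre-iPSCs overlapped, and iPSCs were below both. Id4 was lower in iPSCs than in pre-iPSCs by -1.76 ± 0.41 (SE, n = 2 per group, adjusted p = 0.0401) and lower than in MEFs by -1.64 ± 0.41 (adjusted p = 0.0250). The first call was lost without any 1 of the pre-iPSC and iPSC libraries (adjusted p from 0.162 to 0.441). The second was lost without MEF replicate 2 (0.128), iPSC replicate 1 (0.116) or iPSC replicate 2 (0.154). Both were lost without the filter on low values (0.0884 and 0.0582) and without the table as a term (0.15 and 0.097).

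Taking the Id genes as a family, their summed level was 373 and 551 FPKM in MEFs, 403 and 405 FPKM in pre-iPSCs and 58.4 and 126 FPKM in iPSCs. The sum of pre-iPSCs lay within the range of MEFs, but its makeup did not. Id1 was 17.6% and 30.8% of the sum in MEFs, then 63.8% and 52.6% in pre-iPSCs, then 41.5% and 25.6% in iPSCs. Id3 was 71.7% and 58.3% in MEFs, then 24.8% and 37.6% in pre-iPSCs, then 47.0% and 55.5% in iPSCs. Id1 thus took the first place from Id3 in pre-iPSCs only, among the 3 cell types, and with 2 libraries against 2 an exact permutation test of such a share cannot give a p below 0.33.

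For pre-iPSCs against MEFs, 1 of 9 members was called higher (Bmp7) and 1 lower (Grem1), where 7.39% of all genes were called higher and 9% lower. For iPSCs against pre-iPSCs, 2 of 9 were called lower (Id1 and Id4) and 0 higher, where 4.71% of all genes were called lower and 3.91% higher. Without pre-iPSC replicate 2 the count for pre-iPSCs against MEFs was 0, without either iPSC library it was 1, and without MEF replicate 1 or 2 it was 3 or 4. The share of all genes called in those fits was 8.27%, 10.9% and 10.8%, and 23.1% and 19.0%, against 16.4% with all libraries. For iPSCs against pre-iPSCs the share of all genes called fell without any 1 of the pre-iPSC and iPSC libraries, and so did the count of members. Without either MEF library it was 5, made up of the 4 Id genes and Grem1, and the share of all genes called rose as well, to 17.2% and 17.1% from 8.62%. The medians over the 9 members were -0.48 for the first step and -1.47 for the second, against -0.04 and -0.09 over all genes.

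Ordered by mean FPKM, MEFs had Id3 first at 294.5 ± 38.2 (SD, n = 2), then Id1 at 117.6 ± 73.6 and Id2 at 39.5 ± 5.35, and in the series Id2, Grem1, Bmpr1a, Bmp4, Id4, Bmpr2 every neighbour overlapped. Pre-iPSCs had Id1 first at 235.2 ± 31.1, Id3 second at 126.2 ± 36.8, then Id2 at 33.3 ± 8.53 and Bmpr1a at 14.2 ± 1.89, none of which overlapped the next. Below them, in the series Id4, Bmp7, Grem1, Bmp4, Bmpr2, every neighbour overlapped. In iPSCs Id3 (48.8 ± 30.1) and Id1 (28.3 ± 5.73) overlapped, as did Id2 (13.1 ± 10.6) and Bmpr1a (11.6 ± 4.24). Bmp7 followed at 3.85 ± 0.15, and Id4 at 2.19 ± 1.49 overlapped Bmp4 at 1.69 ± 0.06. Bmpr2, Grem1 and Bmp2 stood last in iPSCs and did not overlap. These levels are set across 2 tables that were quantified separately.

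At the chromatin level, a called nucleosome is a position listed with the number of reads that make it up, and its reads were counted at its centre within 1000 bp of the TSS. The calls of a library held 67362868 to 108211816 reads for H3, 12007350 to 13146349 for H3K4me3, 13224775 to 15222040 for H3K27me3 and 12222861 to 12942154 for H3K9me3. RPKM scales reads to kilobases and to the total of unique reads, for which the totals stated in the study were used. Promoter counts were tested with edgeR over all genes of the tables and called at an adjusted p below 0.05. The H3 libraries of replicate 1 stood apart, with a median of 143 reads per promoter in pre-iPSCs and 102 in iPSCs against 37 to 46 in the other 4, and H3 tests are given with each library left out in turn, while counts of members without overlap include them. Intervals on single counts and on ratios of pooled counts cover counting error only, since reads without molecular identifiers are not independent molecules.

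Within 1000 bp of the TSS, edgeR called H3K27me3 higher at Id1 and Id3 in iPSCs than in MEFs, and at no other member. At Id1 there were 1 and 3 reads in MEFs, then 6 and 4 in pre-iPSCs, then 24 and 16 in iPSCs, or 0.0303 and 0.0794, 0.169 and 0.122, and 0.691 and 0.477 RPKM. Every iPSC library was above every other, and pre-iPSCs were above MEFs. Id1 moved from percentiles 7.74 and 19.7 of all promoters in MEFs to 91.0 and 76.6 in iPSCs, where the median promoter held 9 and 8 reads. At Id3 there were 1 and 4 reads in MEFs, then 14 and 12 in pre-iPSCs, then 25 and 22 in iPSCs, or 0.0303 and 0.106, 0.394 and 0.367, and 0.720 and 0.656 RPKM. The 3 cell types did not overlap at Id3 either. Of all promoters, 27.4% were higher in RPKM without overlap in pre-iPSCs than in MEFs. For iPSCs the share was 22.6% against pre-iPSCs and 30.8% against MEFs.

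The log2 change of iPSCs against MEFs was 3.24 ± 0.58 at Id1 (SE, n = 2 per group, adjusted p = 8.6e-05) and 3.17 ± 0.52 at Id3 (adjusted p = 2.7e-05). From the pooled reads, 40 against 4 at Id1, the ratio per unique read was 10.4 with an exact 95% interval of 3.75 to 39.9. At Id3, with 47 against 5 reads, it was 9.75 with an interval of 3.89 to 31.4. Of the 10 members, 7 passed the filter on low counts, all but Bmpr1a, Bmpr2 and Id4. Id1 passed it through its counts in iPSCs and Id3 through its counts in pre-iPSCs and iPSCs, and without a filter their adjusted p was 9.6e-05 and 6e-05. For iPSCs against MEFs 2 of 7 members were called, beside 11.2% of 10407 promoters. With each library left out in turn 2 members were called, and 3 without MEF replicate 2, where Grem1 was added (1.92, adjusted p = 0.0314). The share of all promoters called in these fits was 3.95% to 9.53%, and 5.99% without MEF replicate 2. With DESeq2 the change at Id3 was 3.24 and not called (adjusted p = 0.0508), and Id1 had no adjusted p.

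At the first step, pre-iPSCs against MEFs, Id3 was called higher (2.37 ± 0.59, SE, n = 2 per group, adjusted p = 0.00564), 1 of 7 members beside 8.1% of promoters. The pooled ratio was 5.39 with an interval of 2.04 to 18.0. Without MEF replicate 1 the change at Id3 was 1.80 and not called (adjusted p = 0.118), and with DESeq2 it was 2.43 and not called (adjusted p = 0.266). Without the filter on low counts it was 2.26 (adjusted p = 0.0156). Id1 was not called at this step (1.32 ± 0.80, adjusted p = 0.347). At the second step, iPSCs against pre-iPSCs, Id1 was called higher (1.93 ± 0.48, adjusted p = 0.0319), 1 of 7 members beside 0.798% of promoters, while Id3 was not called (0.80 ± 0.37, adjusted p = 0.365). Id1 entered this test through its iPSC counts, and without the filter its change was 1.88 (adjusted p = 0.0423). The Id1 call was lost without pre-iPSC replicate 1 (adjusted p = 0.150), pre-iPSC replicate 2 (0.287), iPSC replicate 1 (0.659) or iPSC replicate 2 (0.0618), with the replicate number as a block (0.0504), with calls of at least 2 reads (0.301) and with DESeq2 (1.0). In RPKM within 1000 bp both genes were higher without overlap at both steps, as at 27.4% and 22.6% of all promoters. The pooled ratio was 2.59 at Id1 for the first step (interval 0.747 to 11.3). At Id3 it was 1.81 for the second (1.10 to 3.04). Whether Id1 and Id3 differed in the step of their rise was not tested.

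At Id2 there were 5 and 8 H3K27me3 reads in MEFs, then 7 and 13 in pre-iPSCs, then 13 and 18 in iPSCs. Both iPSC libraries were above both MEF libraries, and the change was not called within 1000 bp (1.24 ± 0.47, adjusted p = 0.0720). At Id4, which was below the filter, there were 4 and 9 reads in MEFs, then 9 and 6 in pre-iPSCs, then 10 and 6 in iPSCs, and all cell types overlapped. At Grem1 there were 5 and 17 reads in MEFs, then 18 and 21 in pre-iPSCs, then 29 and 16 in iPSCs. Both MEF libraries of Grem1 were lower in RPKM than all pre-iPSC and iPSC libraries, and its change from MEFs to iPSCs was not called (1.03 ± 0.40, adjusted p = 0.0819).

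At the TSSs of the ligands the H3K27me3 reads were above those of the median promoter in every library. At Bmp2 there were 20 and 39 reads in MEFs, then 18 and 18 in pre-iPSCs, then 17 and 20 in iPSCs. At Bmp4 there were 23 and 29, 17 and 19, and 14 and 23 reads, and at Bmp7 25 and 26, 21 and 14, and 25 and 11 reads. In RPKM around the tables' TSSs, MEFs were above pre-iPSCs without overlap at all 3 ligands, as at 17.1% of all promoters. They were above iPSCs at Bmp2 and Bmp4, as at 16.6%. None of these changes was called, with -0.66 (adjusted p = 0.196) at Bmp2, -0.49 (0.384) at Bmp4 and -0.51 (0.383) at Bmp7 for iPSCs against MEFs. At Bmpr1a there were 2 to 4 reads in every library, and at Bmpr2 there were 2 and 3 in MEFs, then 7 and 3 in pre-iPSCs, then 11 and 5 in iPSCs, too few for the test. Part of the separation at the ligands was lost when reads were counted around the GENCODE start. Bmp2 then held 13 and 21 reads in MEFs, the same counts in pre-iPSCs, but 15 and 11 in iPSCs, so all cell types overlapped. Bmp4 held 20 and 29 reads in MEFs against 14 and 25 in iPSCs, which overlapped as well. Its pre-iPSC counts, 16 and 19, stayed below those of MEFs, and the Bmp7 counts did not change.

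**Figure D2:**
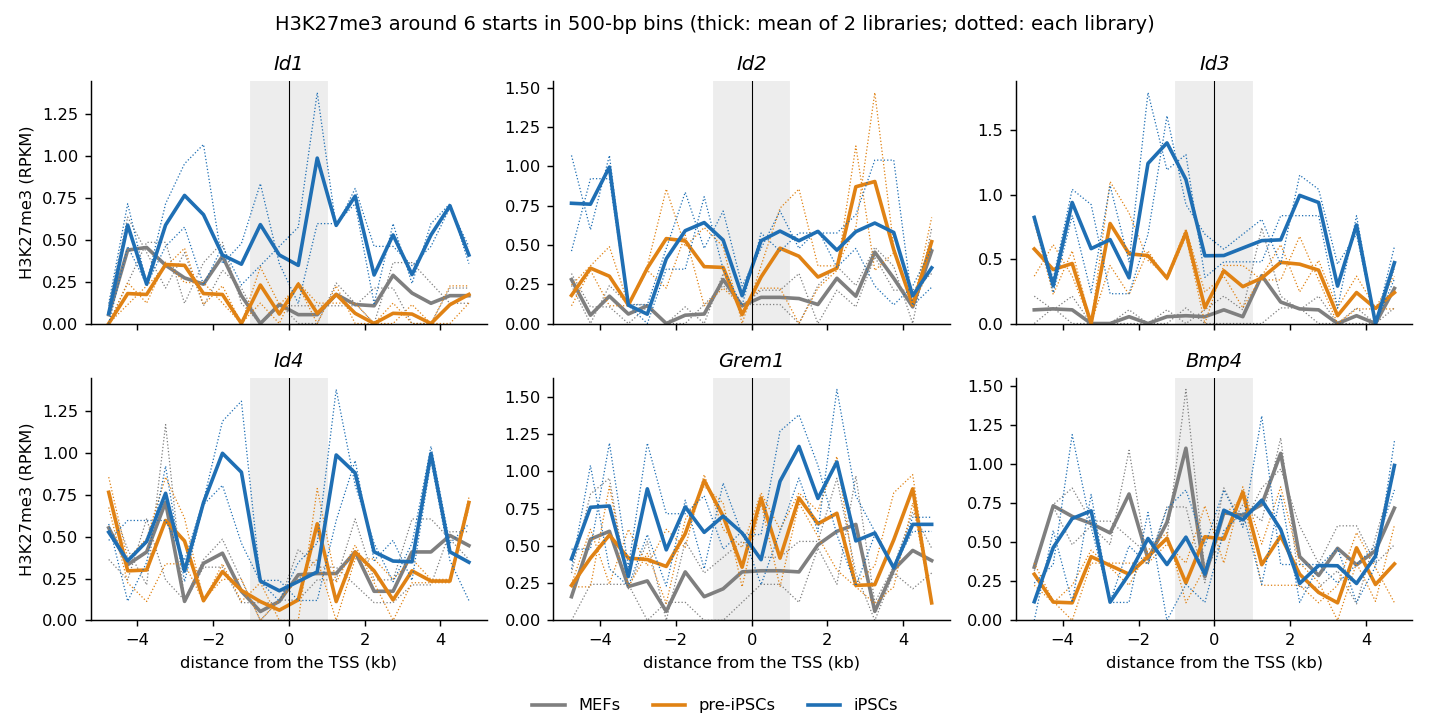
H3K27me3 in bins of 500 bp within 5000 bp of the TSS of Id1, Id2, Id3, Id4, Grem1 and Bmp4, in RPKM, with thick lines for the mean of a cell type, dotted lines for each library and the window of 1000 bp either side in grey. Within the window Id1 and Id3 held 1 to 4 reads in MEF libraries and 16 to 25 in iPSC libraries, and the Bmp4 lines of the cell types cross.

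Counts within 5000 bp of the TSS, a window added after the data were seen, hold more reads per gene. At Id1 they were 33 and 36 reads in MEFs, then 26 and 19 in pre-iPSCs, then 84 and 88 in iPSCs, so most MEF reads lay outside the inner window. Id1 was called higher in iPSCs than in MEFs (1.24, adjusted p = 0.000702) and than in pre-iPSCs (1.88, adjusted p = 0.000301), while pre-iPSCs against MEFs was -0.64 (adjusted p = 0.133), a sign opposite to that within 1000 bp. At Id3 the reads were 6 and 27 in MEFs, then 60 and 68 in pre-iPSCs, then 119 and 116 in iPSCs, with called changes of 1.94 for pre-iPSCs against MEFs (adjusted p = 0.00043) and 2.76 for iPSCs against MEFs (adjusted p = 2.77e-06).

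In the same window Id2 had 31 and 32 reads in MEFs, then 53 and 80 in pre-iPSCs, then 89 and 83 in iPSCs. It was called higher in pre-iPSCs (1.06, adjusted p = 0.0104) and in iPSCs (1.37, adjusted p = 0.000708) than in MEFs. At Id4 the reads were 54 and 62 in MEFs, then 49 and 58 in pre-iPSCs, then 93 and 89 in iPSCs, and iPSCs against MEFs was not called (0.57, adjusted p = 0.0555). In RPKM both iPSC libraries were above both MEF libraries at each of the 4 Id genes, as at 37.3% of all promoters in this window. Relative to the median promoter 7 of 10 members were higher without overlap in iPSCs than in MEFs and 3 lower, beside 24.4% and 36.7%. Grem1, with 42 and 82, 79 and 98, and 111 and 117 reads, was called higher in iPSCs than in MEFs (0.82, adjusted p = 0.0141).

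At Bmp2 and Bmp4 the MEF libraries held the most reads in this window. Bmp2 had 109 and 141 reads in MEFs, then 85 and 99 in pre-iPSCs, then 87 and 88 in iPSCs, and was called lower in iPSCs than in MEFs (-0.59, adjusted p = 0.0313). Bmp4 had 100 and 112, 58 and 64, and 66 and 93 reads, and was called lower at the first step (-0.82, adjusted p = 0.0155). Bmp7 had 157 and 164, 141 and 110, and 124 and 128 reads and was not called (-0.43 for iPSCs against MEFs, adjusted p = 0.0730). Bmpr1a had 27 to 43 reads and Bmpr2 25 to 43 reads per library, and neither was called. In all, 3 members were called at the first step beside 14.6% of 19620 promoters, 1 at the second beside 1.31%, and 5 over the whole course beside 21.4%.

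RNA and H3K27me3 can be set side by side for the 6 members tested in both. For iPSCs against MEFs, Id1 and Id3 were called lower in RNA and higher in H3K27me3 within 1000 bp. Bmp4, Grem1 and Id2 were called lower in RNA with no call of H3K27me3 in that window, and Bmp7 was called higher in RNA with no call. For iPSCs against pre-iPSCs, Id1 was called in both. For pre-iPSCs against MEFs no member was called in both, and at Id1 the RNA was higher (1.14) while the H3K27me3 was also higher (1.32), neither called. At Bmp4, RNA (-1.21) and H3K27me3 within 5000 bp (-0.82) were both lower in pre-iPSCs than in MEFs, the latter called. The RNA and chromatin libraries are separate preparations, so replicate numbers do not join them.

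**Figure D3:**
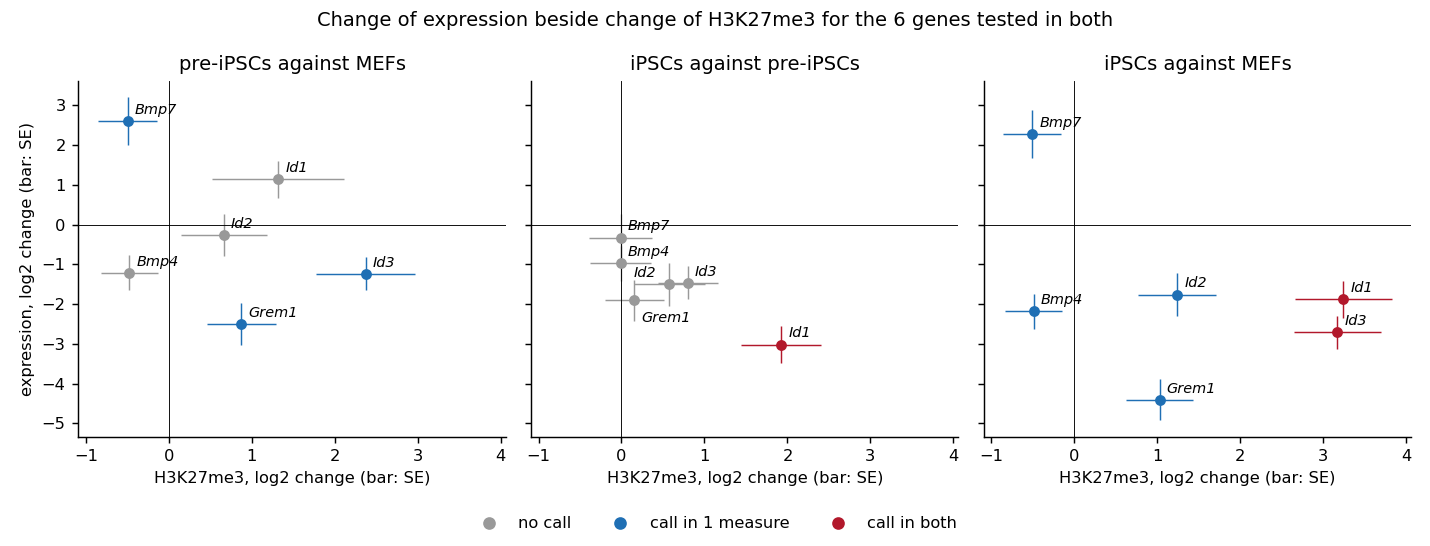
Log2 change of expression (vertical axis, on log2(FPKM + 1)) against log2 change of H3K27me3 within 1000 bp of the TSS (horizontal axis) for the 6 genes tested in both, with bars of 1 SE and 1 panel per comparison (grey for no call, blue for a call in 1 measure, red for a call in both). Id1 and Id3 lie at lower right for iPSCs against MEFs, at 3.24 and -1.88 and at 3.17 and -2.71, and the height of Bmp7 above MEFs depends on the pseudocount of 1.

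H3K4me3 did not pass the test at any of the 10 members within 1000 bp of the TSS in any comparison, where edgeR called 3.85%, 0 and 13.7% of 17700 promoters for the step into pre-iPSCs, the step from there to iPSCs, and the whole course. At an unadjusted p below 0.05 edgeR counted 3466, 1581 and 5285 promoters, and DESeq2 called 31, 0 and 118. Id2 had 80 and 42 reads in MEFs, then 46 and 44 in pre-iPSCs, then 43 and 43 in iPSCs. Id1 had 68 and 40, 46 and 34, and 29 and 37 reads, Id3 had 50 and 39, 44 and 31, and 57 and 36 reads, and Id4 had 55 and 51, 43 and 35, and 36 and 36 reads. In RPKM both iPSC libraries were below both MEF libraries at Id1 (0.90 and 1.22 against 2.30 and 1.27) and at Id4, and the cell types overlapped at Id2 and Id3. The log2 change of iPSCs against MEFs ranged from -0.46 to 0.68 over the 10 members, and the lowest adjusted p was 0.173.

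The closest to a call were Bmp7 and Bmpr2 in pre-iPSCs against MEFs. Bmp7 had 33 and 28 H3K4me3 reads in MEFs, then 61 and 29 in pre-iPSCs, then 35 and 33 in iPSCs, with a change of 0.87 ± 0.28 (SE, n = 2 per group, adjusted p = 0.0604). Bmpr2 had 69 and 65 reads in MEFs, then 29 and 34 in pre-iPSCs, then 41 and 38 in iPSCs, with -0.76 ± 0.25 (adjusted p = 0.0648). MEFs were above both other cell types at Bmpr2 without overlap, and Bmp7 rested on pre-iPSC replicate 1. Both were called without iPSC replicate 1 (adjusted p = 0.0356 for Bmp7 and 0.0479 for Bmpr2) or iPSC replicate 2 (0.0347 and 0.0489), and Bmp7 was without pre-iPSC replicate 2 (1.22, 0.0233).

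Within 5000 bp Bmp7 had 102 and 87 H3K4me3 reads in MEFs, then 174 and 137 in pre-iPSCs, then 151 and 153 in iPSCs. It was called higher in pre-iPSCs (0.86, adjusted p = 0.00156) and iPSCs (0.86, adjusted p = 0.000765) than in MEFs, in which its RNA was listed at 0. Bmpr2 had 219 and 181, 89 and 126, and 100 and 95 reads and was called lower in pre-iPSCs (-0.74, adjusted p = 0.00583) and iPSCs (-0.86, adjusted p = 0.000883). These were the 2 members called in each comparison with MEFs, beside 13% and 27.3% of 19610 promoters, and 0 were called for iPSCs against pre-iPSCs beside 0.0867%.

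No change was called at the other members within 1000 bp either. Bmp2 had 26 to 40 H3K4me3 reads per library, Bmp4 15 to 28, Bmpr1a 29 to 47 and Grem1 28 to 46. Grem1 had 42 and 46 reads in MEFs and 40 and 39 in iPSCs, where its RNA was below 1 FPKM. In RPKM Bmpr1a and Grem1 were lower without overlap in pre-iPSCs and in iPSCs than in MEFs. Over the 10 members, 4 were so placed for pre-iPSCs and 5 for iPSCs, beside 46.0% and 44.4% of 20156 promoters. Relative to the median promoter of each library 1 was lower and 1 higher for pre-iPSCs, beside 23.6% and 23.7%, and 2 were lower and 3 higher for iPSCs, beside 28.4% and 26.4%. With the threshold of 1 RPKM within 500 bp of the TSS, H3K4me3 was present in both libraries at 6 members in MEFs and at 4 each in pre-iPSCs and iPSCs, beside 45.5%, 24% and 26.0% of all promoters. H3K27me3 was above it in both libraries at 0 of 10 members in each cell type, beside 0.769%, 0.491% and 0.382% of all promoters. At Bmp2 it passed the threshold in 1 MEF library. Id2 and Grem1 were the members above it for H3K4me3 in all 6 libraries.

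**Figure D4:**
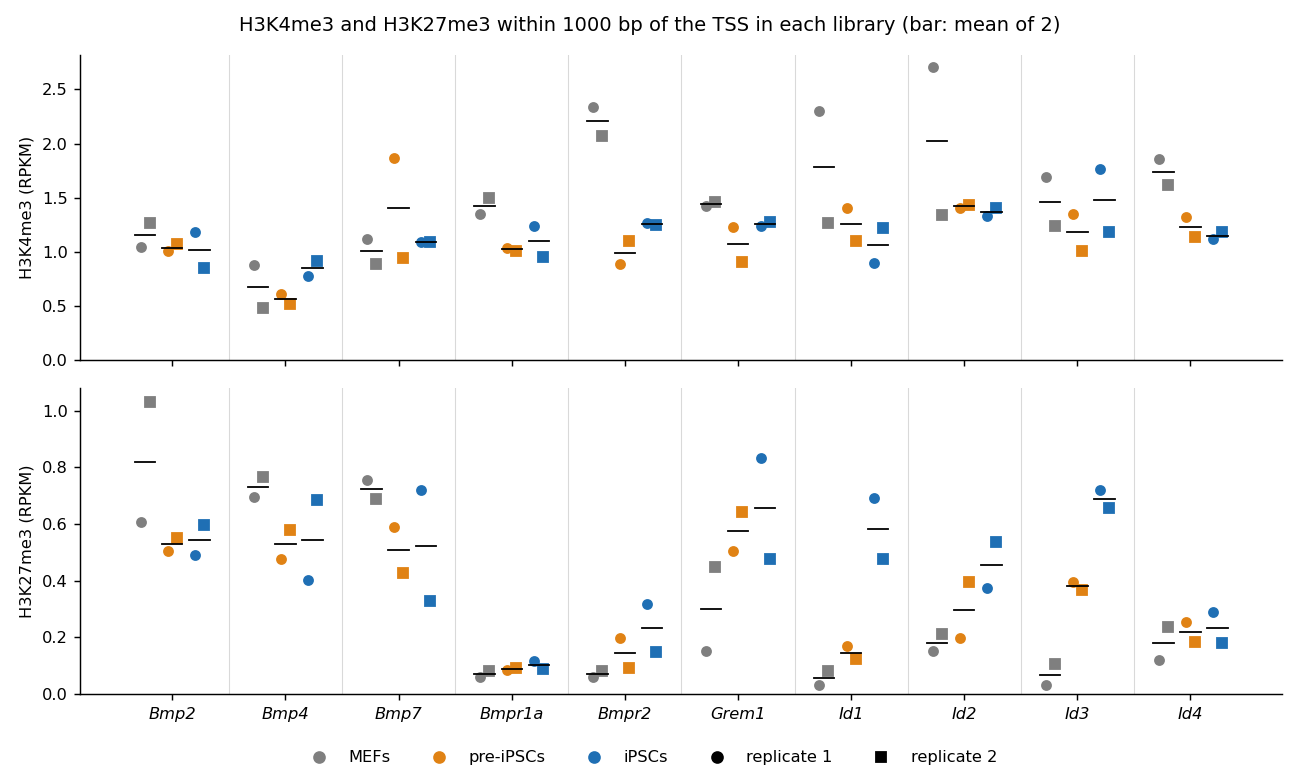
RPKM of H3K4me3 and H3K27me3 within 1000 bp of the TSS for the 10 genes, with 1 point per library (circles for replicate 1, squares for replicate 2), bars at the mean and the cell types by colour. H3K27me3 at Id1 and Id3 rises from 0.0303 to 0.106 RPKM in MEFs to between 0.477 and 0.720 RPKM in iPSCs, while H3K4me3 at Id1 is at 2.30 and 1.27 RPKM in MEFs and 0.90 and 1.22 RPKM in iPSCs.

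H3 showed no called change at the members. The reads of the 10 genes ranged from 19 to 50 and 16 to 71 in MEFs, 105 to 341 and 12 to 54 in pre-iPSCs and 90 to 172 and 29 to 46 in iPSCs. The replicate 1 libraries of pre-iPSCs and iPSCs held the most reads. In RPKM 6 members were higher without overlap in iPSCs than in MEFs and 0 lower, beside 43.0% and 9.34% of all promoters, and relative to the median promoter 4 were higher and 0 lower, beside 19.5% and 24.6%. Relative to the median promoter of the same library the members were at 0.487 to 1.28 and 0.348 to 1.54, 0.734 to 2.38 and 0.324 to 1.46, and 0.882 to 1.69 and 0.659 to 1.05. The highest of these was Bmp4 in pre-iPSC replicate 1, with 341 reads against 49 in replicate 2. edgeR called 0 of 19560 promoters in each of the 3 comparisons, with 373, 105 and 296 at an unadjusted p below 0.05, and DESeq2 called 0. No member was called with any 1 library left out, including pre-iPSC replicate 1 and iPSC replicate 1. Without pre-iPSC replicate 2, edgeR called 4589 promoters for pre-iPSCs against MEFs and 2146 for iPSCs against pre-iPSCs, and no member was among them.

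H3K9me3 has 1 library per cell type and so no replicate check, and its counts are given with exact Poisson intervals of 95%. Bmp4 had 19 reads in MEFs (11.4 to 29.7), 10 in pre-iPSCs (4.80 to 18.4) and 17 in iPSCs (9.90 to 27.2). Bmp7 had 13, 10 and 13 reads, Bmp2 had 8, 9 and 10, and Grem1 had 10, 11 and 7. The Id genes had 2 to 8 reads, with Id1 at 5, 2 and 7, Id2 at 4, 4 and 5, Id3 at 6, 8 and 8, and Id4 at 3, 5 and 8. Bmpr1a had 4, 4 and 2 reads and Bmpr2 had 6, 5 and 6. The median promoter held 6, 7 and 8 reads, and for each member the intervals of the 3 cell types overlapped.

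The rest of the pathway was described by lists. Over all 12401 genes tested, 9% were called lower and 7.39% higher at the first step, 4.71% and 3.91% at the second and 15.5% and 10.3% over the whole course, with median log2 changes of -0.04, -0.09 and -0.14. A gene that was high in 1 cell type alone could pass the filter through that cell type, so calls of expression are also given without the filter. Among 17 other extracellular antagonists and binding proteins, 12 passed the expression filter, and 7 were called lower in iPSCs than in MEFs and 0 higher. Follistatin (Fst), which binds activins and BMPs, was at 68.4 and 128 FPKM in MEFs, 2.5 and 2.26 FPKM in pre-iPSCs and 1.22 and 2.49 FPKM in iPSCs, with a log2 change of -5.09 from MEFs to iPSCs (adjusted p = 0.000732). It had left the MEF range already in pre-iPSCs, where it was called at -4.81.

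Crim1, a transmembrane protein that binds BMPs, was at 52.7 and 19.6 FPKM in MEFs and 0.625 and 1.74 FPKM in iPSCs (-3.98, adjusted p = 0.00300), and the antagonist noggin (Nog) was at 1.52 and 2.88 FPKM in MEFs and 0.209 and 0.0475 FPKM in iPSCs (-1.47, adjusted p = 0.0153). Nog passed the filter through its MEF levels, and without the filter its adjusted p was 0.0209. Bmper and Nbl1 were called lower in both comparisons with MEFs as well. Fstl1 took another course, at 302 and 565 FPKM in MEFs, 279.5 and 254.9 FPKM in pre-iPSCs and 24.9 and 47.0 FPKM in iPSCs, and was the antagonist called lower at the second step (-2.93, adjusted p = 0.00865). In all 6 of 12 were called lower at the first step, 1 at the second and 7 over the whole course, with list medians of -1.58, -0.32 and -2.08. Without the filter 4 of the 6, the 1 and the 7 were still called, and Bmper (adjusted p = 0.0886) and Crim1 (0.0524) were lost at the first step. With Grem1, every extracellular antagonist that was called fell. The fibroblast markers had medians of -3.47, 0.28 and -3.47 in the same comparisons, with 10, 0 and 12 of 15 called lower, and their part in the antagonists' levels was not tested.

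Of 8 other receptors and coreceptors 7 were tested. Bmpr1b, a type I receptor, was called lower in pre-iPSCs (-1.71, adjusted p = 0.0249) and iPSCs (-1.63, adjusted p = 0.0218) than in MEFs. It was at 4.58 and 1.39 FPKM in MEFs and 0.0522 to 0.256 FPKM in the other libraries, so it passed the filter through MEFs, and without the filter its adjusted p was 0.058 for pre-iPSCs, no longer called, and 0.0435 for iPSCs. Acvr1, another type I receptor, fell from 22.2 and 17.2 FPKM in MEFs through 10.8 and 9.62 FPKM in pre-iPSCs to 3.0 and 4.98 FPKM in iPSCs (-2.07, adjusted p = 0.00936). Acvr2b, a type II receptor, rose from 0.558 and 0.670 FPKM in MEFs through 2.25 and 2.41 FPKM to 6.38 and 5.66 FPKM in iPSCs (2.12, adjusted p = 0.00550). Among the 4 Smad genes that carry the signal, Smad1 was called lower in pre-iPSCs than in MEFs (10.9 and 7.25 against 3.23 and 2.21 FPKM, -1.43, adjusted p = 0.0381, and 0.0867 without the filter), and none was called in the other comparisons.

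Of 7 intracellular and membrane inhibitors, Smad6, an inhibitory Smad that is itself a BMP target, was called lower in pre-iPSCs (-1.37, adjusted p = 0.0465) and iPSCs (-1.54, adjusted p = 0.0227) than in MEFs. Bambi, a pseudoreceptor, was called lower at the first step (-1.28, adjusted p = 0.0381). All 3 of these calls were lost without the filter (adjusted p = 0.102 and 0.0543 for Smad6 and 0.0817 for Bambi). Of 7 other target genes, 4 were called lower than in MEFs in both pre-iPSCs and iPSCs, namely the osteogenic factors Dlx5, Msx2 and Runx2 and the helix-loop-helix factor Atoh8. Dlx5 was at 1.77 and 2.74 FPKM in MEFs, at most 0.0668 FPKM in pre-iPSCs and listed at 0 in iPSCs, so it passed the filter through MEFs, and without the filter its adjusted p was 0.0189 for pre-iPSCs and 0.00972 for iPSCs. Without the filter the calls of the 4 were kept except that of Msx2 in pre-iPSCs (adjusted p = 0.0561). Dusp9, a phosphatase of Erk known as a BMP target in mouse stem cells, was at 8.62 and 1.47 FPKM in MEFs, 2.77 and 2.81 FPKM in pre-iPSCs and 42.0 and 22.9 FPKM in iPSCs. Its call was higher at the second step (3.08, adjusted p = 0.0125) and from MEFs to iPSCs (2.72, adjusted p = 0.00919), the opposite direction to the Id genes. Of the 3 helix-loop-helix partners of Id proteins in the tables, 0 were called in any comparison.

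**Figure D5:**
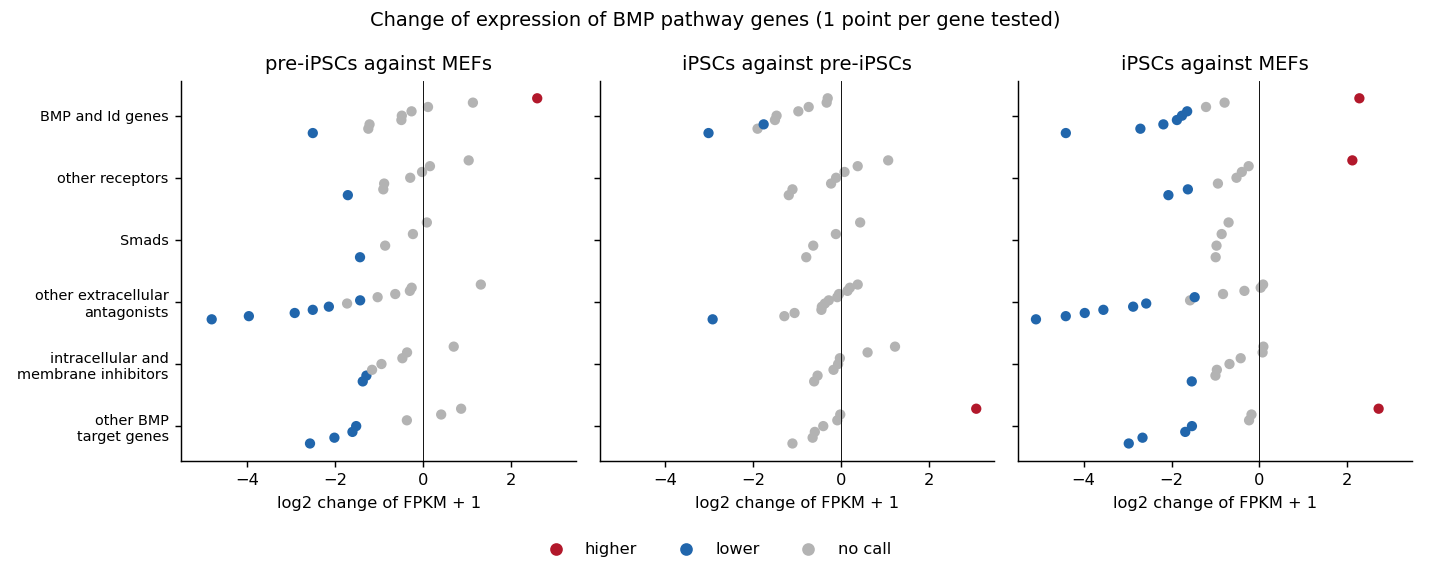
Log2 change of expression on log2(FPKM + 1) for the genes tested in each list of the BMP pathway, with 1 point per gene and 1 panel per comparison, and with genes called higher in red, lower in blue and not called in grey. Of the extracellular antagonists, 6 of 12 are called lower for pre-iPSCs against MEFs and 7 of 12 for iPSCs against MEFs, and the target gene called higher in iPSCs is Dusp9 at 2.72.

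H3K27me3 within 1000 bp was tested at all 17 other antagonists. For pre-iPSCs against MEFs 2 were called higher, Fst and Fstl3, and 1 lower, Chrdl1, beside 8.1% of all promoters called. For iPSCs against MEFs 3 were called higher, Crim1, Fstl3 and Nbl1, and 0 lower, beside 11.2%. Fstl3 and Chrdl1 are named after their values were seen. Of the 7 other targets, Runx2 was called higher and Dusp9 lower for iPSCs against MEFs, which is in each case the direction opposite to its RNA. Among the fibroblast markers 7 of 11 tested were called higher in iPSCs than in MEFs for this mark. The H3K27me3 calls of listed genes are given for the main fit only, with the filter on low counts. Over all promoters edgeR called 843 and 1167 in the 2 comparisons with MEFs, and DESeq2 called 44 and 26.

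Profiles of expression over the 6 libraries were compared with those of 10178 genes whose log2(FPKM + 1) spanned at least 1, as a description, since the points share libraries and 3 cell types. The genes most like Id1 were Prkd2 (Pearson r = 0.997), Afap1l2 (0.986) and Zfp422 (0.985), and 140 genes had r above 0.9. Those most like Bmp4 were B3gnt1 (0.996), Zfp579 (0.995) and Nck2 (0.995), with 713 genes above 0.9, and those most like Grem1 were Slco2a1 (1.00), Inf2 (0.997) and Asah2 (0.996), with 769. Fewer genes followed the Id1 course, with its peak in pre-iPSCs, than the falling courses of Bmp4 and Grem1.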

How the data were processed

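RNA-seq of 6 libraries and MNase ChIP-seq of 21 libraries were used. For RNA-seq the authors mapped reads to mm9 with TopHat2 2.0.4 and deposited FPKM from Cufflinks 2.0.2, in 2 tables that hold replicates 1 and 2. For ChIP-seq the authors mapped reads with Bowtie 1.0.1, kept unique reads and deposited nucleosome calls with the count of reads of each, each read having been moved to the nucleosome centre. Groups came from the sample titles.

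For expression, limma 3.58.1 with a mean-variance trend was fitted to log2(FPKM + 1) of the 12401 genes whose mean reached 0.5 FPKM, with the table as a term. For promoter counts the quasi-likelihood test of edgeR 4.0.16 was used after filterByExpr and TMM scaling, with DESeq2 1.42.0 as an alternative, and p-values were adjusted by Benjamini-Hochberg over all genes or promoters. With 2 replicates, p-values measure the spread between these samples. That spread was shared by all cell types and estimated in part from the other genes or promoters. It is thus not that of a gene's own libraries alone. On simulated data most planted changes of 2-fold in expression, H3K4me3 and H3K27me3 were missed, so the lack of a call does not show the lack of such a change. For expression a 2-fold change equals the threshold of the call, so misses at that size are partly set in advance. Fewer genes and promoters were changed in the simulation than were called in the data, so its misses do not measure those in the data.

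The members and lists were chosen with earlier results of these data known. All 10 members, listed genes called in expression, and the 3 profiles nearest to Id1, Bmp4 and Grem1 are named. Of the genes so chosen, 1 is not reported here by name. Fstl3 and Chrdl1, called in chromatin alone, were named after their values were seen. R 4.3.3, Python 3.11.15, pandas 2.3.3, numpy 2.4.6, scipy 1.17.1 and matplotlib 3.10.9 were used.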

Additional observations from a re-analysis of the deposited data

How the results depend on the processing

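No change of a member reversed its direction past the threshold under any alternative run. Members called in expression numbered 2, 2 and 7 for pre-iPSCs against MEFs, iPSCs against pre-iPSCs and iPSCs against MEFs. They were 0, 1 and 3 without the filter on low values, which tested 16963 genes and called 7.33%, 4.65% and 14.0% of them. With 1 library left out these counts and the share of all genes called rose in some fits and fell in others. The table was the replicate block in these fits, and without it the numbers were 2, 1 and 5, beside 16.1%, 9.06% and 24.2% of all genes. For H3K27me3 within 1000 bp they were 1, 1 and 2, and 0, 0 and 0 with DESeq2, which called 44, 0 and 26 promoters in all and gave no adjusted p for Id1 in iPSCs against MEFs. They were also 0, 0 and 0 within 500 bp, beside 2.32%, 0.0902% and 3.94% of promoters. There 2 members passed the filter, and Id1 and Id3 did not. Within 5000 bp they were 3, 1 and 5 beside 14.6%, 1.31% and 21.4% of promoters. With calls of at least 2 reads the number was 0 for iPSCs against pre-iPSCs, beside 0.404%. With 1 library left out Id1 and Id3 kept their calls for iPSCs against MEFs, while the share of all promoters called fell. The calls at the first and second steps were each lost in some of these fits. With the replicate number as a block they were 1, 0 and 2, beside 7.38%, 0.404% and 10.3% of promoters. For H3K4me3 they were 0, 0 and 0. For pre-iPSCs against MEFs 1 member was called with library sizes of unique reads (beside 7.74% of promoters), within 500 bp (1.86%, both Bmpr2) and with calls of at least 2 reads (3.32%, Bmp7). Bmp7 and Bmpr2 were called without either iPSC library, where the share of all promoters called rose. Bmp7 was called without pre-iPSC replicate 2, where that share fell. Within 5000 bp 2 were called in each comparison with MEFs, beside 13.0% and 27.3%. For H3 the number was 0 throughout. The window of 5000 bp, the GENCODE starts and scaling to the median promoter were chosen after seeing the data.

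The labels do not say that a replicate number joins libraries. Differences between replicates 1 and 2 correlated over genes at 0.346 for MEFs and pre-iPSCs, -0.205 for MEFs and iPSCs and 0.112 for pre-iPSCs and iPSCs in expression, and at -0.043 to 0.033 for H3K27me3, -0.053 to 0.115 for H3K4me3 and -0.032 to 0.794 for H3 over promoters, with the highest between the H3 libraries of pre-iPSCs and iPSCs. Quantile normalization moved the RNA change of Id2 in pre-iPSCs against MEFs from -0.26 to 0.03, neither called. A fit that leaves out a library assumes that its remaining partner varies like the other cell types. With H3K27me3 counts of 1 to 4 reads in MEFs, the size of the rise at Id1 and Id3 is known only roughly. The intervals given cover counting error in the pooled reads and not the spread between replicates.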

Other observations

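The H3 reads of the Id1 promoter were split unevenly around the TSS in the replicate 1 libraries of pre-iPSCs and iPSCs. In pre-iPSC replicate 1, 6 of 114 reads lay upstream and 108 downstream, whereas the other pre-iPSC library had 16 upstream and 13 downstream. At Id3 pre-iPSC replicate 1 had 10 upstream and 147 downstream, against 13 and 4 in replicate 2. MEFs had 14 and 15 reads upstream and downstream at Id1 in replicate 1 and 16 and 23 in replicate 2, and at Id3 they had 10 and 16 in replicate 1 and 9 and 27 in replicate 2. In iPSC replicate 1 the counts were 24 and 82 at Id1 and 48 and 97 at Id3. The split was not particular to Id1 and Id3, since pre-iPSC replicate 1 also had 68 upstream and 273 downstream at Bmp4 and 44 and 140 at Id4, while at Bmp2 it had more reads upstream, 141 against 87. These replicate 1 libraries are also the H3 libraries with the higher median per promoter, and the difference between the sides was not tested.

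Within 5000 bp of the Bmp7 TSS, H3 had 306 and 435 reads in MEFs, then 2253 and 246 in pre-iPSCs, then 966 and 311 in iPSCs, with the highest count in the pre-iPSC library described above.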
